A study of Mus musculus with 6 samples.

Results

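The genes that write, maintain and remove DNA methylation were described at their transcription start sites in mouse embryonic stem cells (mESCs) and in a line of mouse oligodendrocyte progenitor cells (mOPCs). The 9 genes were chosen by their function, with earlier results of these data known, among 55450 annotated genes: Dnmt1, Dnmt3a, Dnmt3b, Dnmt3l, Uhrf1, Tet1, Tet2, Tet3 and Tdg. Cap analysis of gene expression (CAGE) captures capped RNA and counts tags at each 5′ end, here in nuclear RNA of 3 mESC and 3 mOPC libraries. The mESCs were the male line R08, kept without feeder cells in medium with serum and leukemia inhibitory factor. The mOPCs were the line oli-neu, expanded on poly-L-lysine in DMEM with N2 supplement, T3, L-thyroxine, bFGF and PDGF-BB. No group carried a treatment, and each group was 1 cell line, so cell type cannot be told apart from line, medium and library preparation. According to the study's methods, replicates were batches of cells of different passage number.

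Methyl groups are set on cytosines of CpG dinucleotides by DNA methyltransferases. DNMT3A and DNMT3B place new marks, DNMT3L is a catalytically inactive partner that stimulates them, and DNMT1 copies marks onto the new strand after replication, where UHRF1 recruits it to hemimethylated sites. TET1, TET2 and TET3 oxidize 5-methylcytosine, and TDG excises the higher oxidation products so that base excision repair restores cytosine. Several of these genes have more than 1 promoter, and the promoter can decide which part of the protein is encoded. DNMT3A made from the internal promoter lacks the N-terminal part and is the form known from mESCs.

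Each tag stands for 1 captured 5′ end, so levels are given as tags per 1000000 tags of the library (TPM, here for tags) and need no correction for gene length. A gene's level is the sum of tags within 500 bp of its annotated 5′ ends on its strand. Libraries held 16657021 to 40928704 tags, and 1 position took 0.508 to 0.667% of the tags in mESC libraries but 5.38 to 5.92% in mOPC libraries. All 8 mESC markers were higher in mESCs (summed level 3996 to 4384 TPM against 17.3 to 23.4). Of 8 mOPC markers, 7 were tested and were higher in mOPCs (2413 to 2558 against 8.82 to 10.1 TPM), Pdgfra was at only 8.33 TPM there, and Nkx2-2 had no tag in any mOPC library. All 5 mature oligodendrocyte markers were also higher in mOPCs (312 to 343 against 12.1 to 14.6 TPM). The 3 microglia markers stayed at or under 0.139 TPM in sum in each library. Primitive endoderm markers summed to 21.4 to 25.6 TPM in mESCs and to at most 0.0347 in mOPCs. The 4 neuron markers summed to 10.3 to 10.9 TPM in mESCs and 81.3 to 102 in mOPCs, nearly all from Syt1 (88.3), with Rbfox3 and Snap25 at 0 in mOPCs. The 4 astrocyte markers summed to 7.86 to 10.6 and 14.4 to 16.0 TPM, the 4 fibroblast or feeder markers to 18.7 to 24.2 (mostly Thy1) and 9.67 to 12.4 (mostly Col1a1), and the 3 trophoblast markers to 7.65 to 8.10 and at most 0.0456. The part of such cells in the values below was not tested. In bulk libraries, fewer expressing cells and less RNA per cell cannot be told apart. The p-values below measure the spread between batches of cells of 1 line per group.

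The promoter sequences below come from RefSeq (GRCm38.p6, the same assembly as mm10), which held at least 1 promoter window, from 250 bases before to 50 bases after an annotated start, for all 9 genes. They are shown because several of these genes used different starts in the 2 cell types. Single capitals mark the position with the most tags, and runs of capitals mark the part of a start cluster that lies in the window. In pieces with a run of capitals, the position with the most tags lies downstream of the printed bases.
Dnmt3a, upstream start used in mOPCs, chr12:3806915-3807029, plus strand: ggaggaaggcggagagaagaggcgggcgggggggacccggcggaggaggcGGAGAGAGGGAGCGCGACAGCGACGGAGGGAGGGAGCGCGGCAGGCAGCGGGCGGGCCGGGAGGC
Dnmt3a, internal start used in mESCs, chr12:3891707-3891793, plus strand: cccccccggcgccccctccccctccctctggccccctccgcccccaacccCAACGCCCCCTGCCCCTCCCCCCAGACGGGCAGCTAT
Tet1, proximal start used in both, chr10:62887405-62887475, minus strand: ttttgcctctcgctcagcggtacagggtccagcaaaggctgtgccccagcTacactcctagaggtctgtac
Tet3, downstream start, chr6:83441630-83441700, minus strand: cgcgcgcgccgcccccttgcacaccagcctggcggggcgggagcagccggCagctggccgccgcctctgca
Dnmt3l, start used in mESCs, chr10:78049736-78049891, plus strand: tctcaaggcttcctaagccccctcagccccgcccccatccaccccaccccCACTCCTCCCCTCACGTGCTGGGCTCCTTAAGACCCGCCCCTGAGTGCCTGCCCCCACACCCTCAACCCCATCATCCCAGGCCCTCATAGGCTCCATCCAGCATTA
Dnmt1, main start, chr9:20952810-20952873, minus strand: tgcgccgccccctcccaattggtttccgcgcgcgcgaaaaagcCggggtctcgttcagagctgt
Uhrf1, first start cluster, chr17:56303254-56303386, plus strand: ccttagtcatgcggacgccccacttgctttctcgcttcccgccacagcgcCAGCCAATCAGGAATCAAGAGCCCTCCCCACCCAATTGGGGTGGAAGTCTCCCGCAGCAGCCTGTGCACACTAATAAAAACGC
Uhrf1, second start, chr17:56304297-56304362, plus strand: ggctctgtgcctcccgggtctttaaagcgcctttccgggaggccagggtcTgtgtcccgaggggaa

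The 2 Dnmt3a promoters differ in base content. The 2 overlapping upstream windows of 300 bases held 46 and 47 CpGs, more than 98.3 and 98.6% of 32817 RefSeq promoter windows, and the internal window held 18. The Dnmt3l window shown in part above had 4 CpGs, where the median of all windows was 7, and the Tet2 window had 57, more than 99.8% of windows. No window of the 9 genes (0 of 16) held TATAAA on either strand, a word found in 13.6% of all windows. TTTNNCGC, a loose form of the E2F site, was searched on both strands and found in 3 of 16 windows, against 5.16% of all windows. These were the main Dnmt1 window and both Uhrf1 windows, as gcgaaaaa in the Dnmt1 sequence above, as tttctcgc in the first Uhrf1 sequence and as tttcgcgc upstream of the second. The main Dnmt1 window also held tttggcgc on the gene strand, outside the printed bases. CCAAT was found in 6 of 16 windows, against 37.4% of all windows. A start usually lies on the purine of a pyrimidine-purine step. At the 6 most used starts of these genes that lie in a window, the deposited position was the pyrimidine of such a step in 6 of 6 and the purine in 0 of 6.

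**Figure D1:**
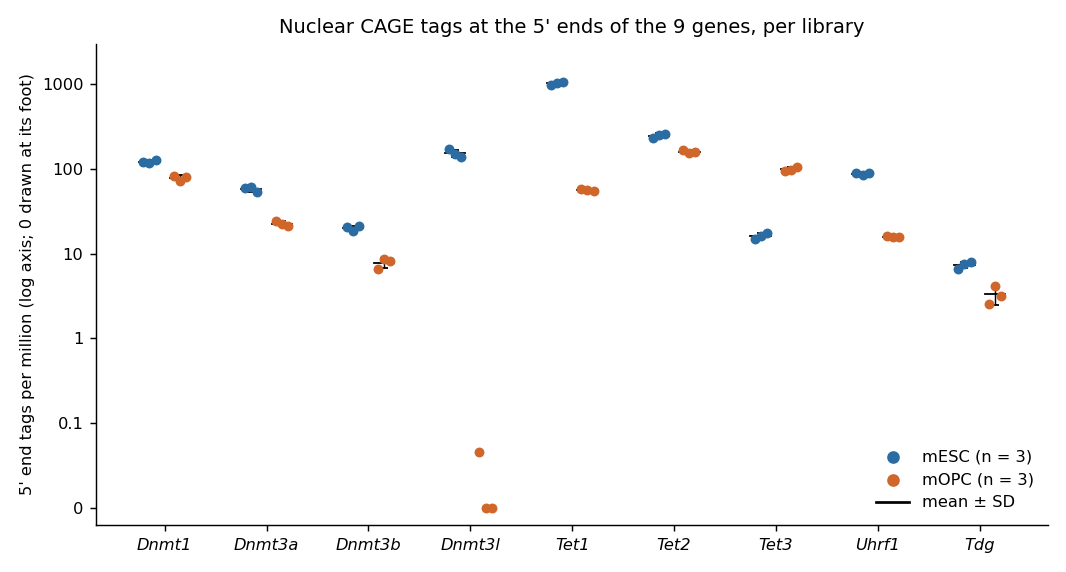
TPM at the annotated 5′ ends of the 9 genes on a log axis, 1 point per library, with mean ± SD for each cell type (n = 3). Tet3 alone is higher in mOPCs, and Dnmt3l has 1 tag in 1 mOPC library and none in the other two, drawn at the foot of the axis.

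At the level of whole genes, 8 of the 9 genes were higher in mESCs and Tet3 was higher in mOPCs. The edgeR test called all 9 at an adjusted p under 0.05. Such calls were common between these 2 lines, at 48.9% of 18490 tested genes for higher in mESCs and 42.1% for higher in mOPCs. A call of over 2-fold was met by 6 genes in the direction of mESCs and by 1 in the direction of mOPCs, where 37.2% and 29.8% of all genes met it. The median log2 fold change (mOPCs over mESCs) of the 9 genes was −1.37, and that of all genes tested was −0.19. For none of the 9 genes did the levels of the 2 cell types overlap. No share over all genes stands beside this count, so it does not set the 9 genes apart.

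Dnmt3l, the inactive partner of the de novo enzymes, had the most one-sided level. Its 3 mESC libraries held 172, 148 and 140.5 TPM, and the mOPC libraries held 1, 0 and 0 tags. Pooled over libraries, the level was 14529-fold higher in mESCs, with an exact 95% interval for counting error of 2607 to 573928 (edgeR adjusted p = 5.77e-45). Nearly all mESC tags (99.1 ± 0.2%, SD, n = 3) came from the window around the start shown above. The annotated start farther upstream, which encodes the same 421 codons, held 0.851 TPM on average, and that of the shorter transcripts farther downstream held 0.475.

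Dnmt3a, a de novo methyltransferase (chr12:3806007-3914443), was at 60.0, 62.0 and 53.5 TPM in mESCs, compared with 24.3, 22.3 and 21.3 in mOPCs. The log2 fold change was −1.40 ± 0.09 (SE, edgeR adjusted p = 1.30e-20), and it was −0.87 when all tags in the gene body were counted. Dnmt3b, the other de novo enzyme (chr2:153649450-153687730), was at 20.5, 18.5 and 20.9 TPM in mESCs, against 6.66, 8.67 and 8.11 in mOPCs. Its log2 fold change was −1.37 ± 0.12 (edgeR adjusted p = 3.32e-16). The summed 5′ end tags of both genes were thus lower in mOPCs by close to the same factor, 2.63 and 2.59-fold. The difference between the genes was not tested, and the Dnmt3a sum joins starts that changed in opposite directions. Of the summed level of the 3 de novo genes, Dnmt3l held 66.1 ± 1.7% in mESCs and Dnmt3a 25.2 ± 1.7%, whereas Dnmt3a held 74.3 ± 3.6% and Dnmt3b 25.7 ± 3.6% in mOPCs (SD, n = 3).

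The maintenance genes differed by unequal amounts. Dnmt1 (chr9:20907209-20959888) was at 120.4, 118 and 128 TPM in mESCs, compared with 82.7, 72.1 and 81.1 in mOPCs, a log2 fold change of −0.66 ± 0.08 (edgeR adjusted p = 2.55e-10). Uhrf1 (chr17:56303321-56323486) was at 90.7, 84.2 and 90.5 TPM in mESCs, against 16.3, 15.5 and 15.7 in mOPCs, a log2 fold change of −2.51 ± 0.09 (edgeR adjusted p = 2.58e-32). The ratio of Uhrf1 to Dnmt1 tags was 0.753, 0.714 and 0.709 in mESC libraries and 0.197, 0.215 and 0.194 in mOPC libraries. These ratios did not overlap, and the two-sided exact permutation test gave p = 0.1, the smallest that 3 libraries against 3 allow.

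The 3 Tet genes changed rank between the lines. Tet1 (chr10:62804570-62908996) was at 975, 1045 and 1072 TPM in mESCs, compared with 57.9, 56.5 and 54.3 in mOPCs, a log2 fold change of −4.22 ± 0.10 (edgeR adjusted p = 1.27e-42). Tet2 (chr3:133463679-133545139) was at 230.4, 253 and 262 TPM in mESCs, against 167, 155 and 157 in mOPCs, a log2 fold change of −0.66 ± 0.08 (edgeR adjusted p = 1.13e-10). Tet3 (chr6:83362373-83459084) went the other way, from 14.7, 16.3 and 17.7 TPM in mESCs to 94.8, 96.5 and 106 in mOPCs, a log2 fold change of 2.59 ± 0.09 (edgeR adjusted p = 1.71e-32). Summed over the 3 genes, mESC libraries held 1296 ± 68 TPM and mOPC libraries 315 ± 6 (SD, n = 3). Tet1 made up 79.6 ± 0.3% of that sum in mESCs and 17.9 ± 0.6% in mOPCs. Tet2 went from 19.2 ± 0.3 to 50.7 ± 1.4%, and Tet3 from 1.25 ± 0.05 to 31.4 ± 1.8%. In mOPCs, 61.5 ± 2.7% of the Tet1 tags came from an intronic start of a transcript annotated without a coding sequence.

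Tdg, the glycosylase (chr10:82629828-82650799), was the weakest of the 9 genes in mESCs, at 6.62, 7.62 and 7.87 TPM, against 2.55, 4.20 and 3.20 in mOPCs. The log2 fold change was −1.15 ± 0.15 (edgeR adjusted p = 1.17e-09). It shrank to −0.37 (adjusted p = 0.0093) when all tags in the gene body were counted and grew to −2.16 in windows of 100 bp. On the opposite strand of the Tdg promoter, 5.57, 4.50 and 4.29 TPM were found in mESCs and 26.9, 24.9 and 28.4 in mOPCs, so these antisense tags outnumbered those of Tdg itself in each mOPC library.

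In mESCs the levels ran, from high to low, Tet1, Tet2, Dnmt3l, Dnmt1, Uhrf1, Dnmt3a, Dnmt3b, Tet3 and Tdg. In mOPCs they ran Tet2, Tet3, Dnmt1, Tet1, Dnmt3a, Uhrf1, Dnmt3b, Tdg and Dnmt3l. In both orders the library values of neighbours did not overlap. The mOPC level of Tet1 includes 34.6 ± 1.7 TPM from its intronic start. Among 14219 other protein-coding genes, Nucks1 was nearest to Tet1 by Euclidean distance of log2(TPM + 0.5) over the 6 libraries (distance 0.208, 1007 and 53.0 TPM in mESCs and mOPCs). By the same measure the nearest genes were Mt2 for Dnmt3l (0.193), Tfe3 for Dnmt3a (0.151), Dglucy for Dnmt3b (0.262), Psmd6 for Dnmt1 (0.176), Ppil1 for Uhrf1 (0.177), Psip1 for Tet2 (0.205), Slc1a1 for Tet3 (0.187) and Fndc3c1 for Tdg (0.398).

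Promoter choice was tested next in genes with at least 2 promoters past the filter, where a promoter is a set of annotated 5′ ends with overlapping windows. The test of edgeR (diffSpliceDGE) asks whether a promoter changed unlike the gene's other promoters. It called 72.8% of 3378 genes, so a call alone does not set a gene apart. Tet1 (adjusted p = 6.24e-77), Dnmt3a (7.70e-58) and Tet3 (1.38e-06) were called, and Tet2 was not (0.0519). Tet2 did pass without mESC replicate 1, 2 or 3 or without mOPC replicate 1 (0.000231 to 0.00925). It had 98.9 ± 0.2% of tags at its main promoter in mESCs and 98.5 ± 0.4% in mOPCs.

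**Figure D2:**
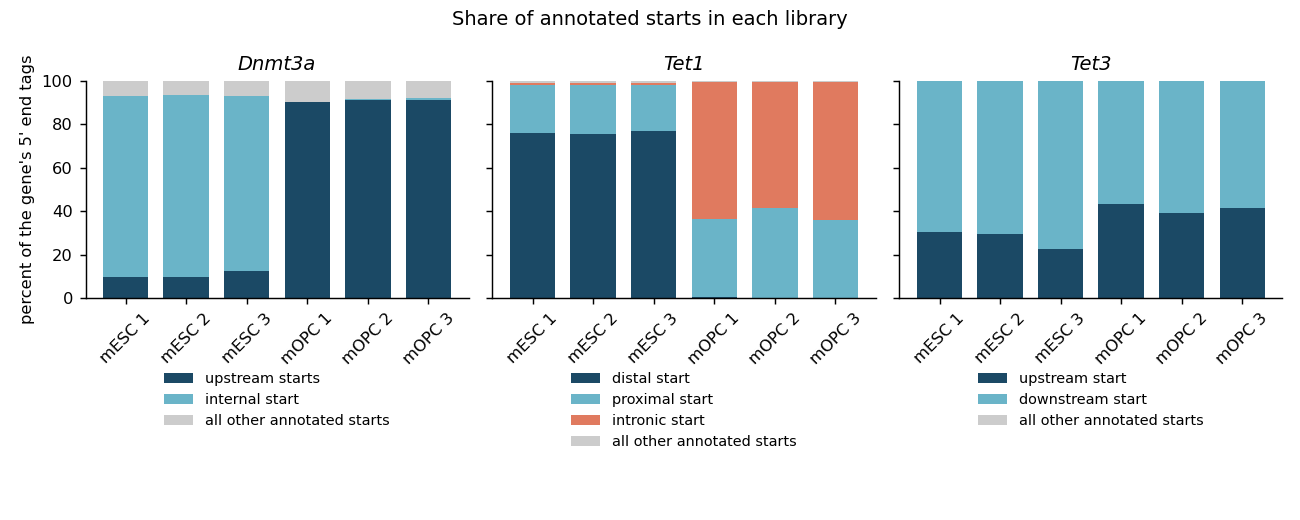
Percent of each gene's 5′ end tags at its annotated starts, 1 bar per library, for Dnmt3a, Tet1 and Tet3. The internal start of Dnmt3a and the distal start of Tet1 fill most of each mESC bar and are nearly absent from the mOPC bars, while Tet3 uses both its starts in all 6 libraries.

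Dnmt3a switched between its upstream and its internal promoter. The upstream window (chr12:3805507-3807660) serves several transcripts, among them Dnmt3a-201 and Dnmt3a-218, which encode the full 908 codons. This window was at 5.73, 6.06 and 6.67 TPM in mESCs, compared with 21.9, 20.4 and 19.5 in mOPCs. It was higher in mOPCs by 1.70 ± 0.13 on the log2 scale (edgeR adjusted p = 2.34e-24, where 43.2% of 23610 tested promoters were called higher in mOPCs). The internal window (chr12:3891228-3892244) lies 85721 bp downstream and serves Dnmt3a-203 and Dnmt3a-205, which encode 689 codons. It was at 50.0, 51.9 and 43.0 TPM in mESCs, and the mOPC libraries held 1, 1 and 5 tags there. Its log2 fold change was −9.27 ± 0.21 (edgeR adjusted p = 2.15e-67, where 46.5% of promoters were called higher in mESCs). The internal start thus gave 82.5 ± 1.8% of Dnmt3a tags in mESCs and 0.305 ± 0.232% in mOPCs, and the upstream window gave 10.6 ± 1.6% and 91.0 ± 0.7%. The whole-gene change of Dnmt3a therefore joins a 3.25-fold higher upstream and a 616-fold lower internal start in mOPCs (edgeR estimates, the second from few mOPC tags).

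Within the upstream window, 2 start clusters behaved differently. The first, chr12:3806498-3806586, held 3.70, 4.38 and 5.21 TPM in mESCs and 6.29, 5.34 and 4.86 in mOPCs, and these values overlapped. Dnmt3a-202, a retained intron, and Dnmt3a-206, whose end is not annotated, begin in this first cluster. Whether its tags belong to full-length transcripts was not tested. The second, chr12:3806965-3807083, whose first part is printed above, held 0.633, 0.600 and 0.597 in mESCs and 10.1, 10.0 and 8.97 in mOPCs. In the internal cluster, chr12:3891757-3891835, the position with the most tags was the same in all 3 mESC libraries and held 30.3% of the tags, and no mOPC library held a tag in the cluster. A further annotated start, that of Dnmt3a-213 (chr12:3884949-3885949), was at 1.75 ± 0.25 TPM in mESCs and 0.0968 ± 0.0766 in mOPCs. The other annotated Dnmt3a starts had means of at most 0.599 TPM in each cell type.

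Tet1 used 3 starts in different proportions. The distal start (Tet1-209, chr10:62892486-62893486) held 743, 791 and 827 TPM in mESCs, and 3, 2 and 0 tags in mOPC libraries. Pooled, it was 14209.9-fold higher in mESCs (exact 95% interval 6089 to 43765, counting error only, edgeR adjusted p = 1.43e-84). The proximal start (Tet1-207 and Tet1-210, chr10:62886824-62888012) was at 213, 235 and 228 TPM in mESCs, against 21.0, 23.3 and 19.6 in mOPCs, a log2 fold change of −3.46 ± 0.10 (edgeR adjusted p = 1.96e-59). The intronic start of Tet1-202, annotated as a processed transcript without a coding sequence (chr10:62864804-62865804), was at 8.26, 7.44 and 8.57 TPM in mESCs, compared with 36.4, 33.0 and 34.3 in mOPCs. It was higher in mOPCs by 2.04 ± 0.11 on the log2 scale (edgeR adjusted p = 1.58e-33), against the direction of the gene.

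By share, the distal start gave 76.3 ± 0.7% of Tet1 tags in mESCs and 0.120 ± 0.118% in mOPCs, and the intronic start gave 0.786 ± 0.069% and 61.5 ± 2.7%. The proximal start gave 21.9 ± 0.6% in mESCs and 37.8 ± 2.9% in mOPCs. Both the distal and the proximal start lie upstream of the annotated start codon and leave all 2039 codons of Tet1-206 downstream, whereas 1418 codons lie downstream of the intronic start. The rise of the proximal share rests on where tags are counted, because the most used distal position lies outside a 100 bp window around the annotated end. In such windows the usage change of the proximal start turned from 0.55 to −0.63 on the log2 scale, and the gene's log2 fold change was −2.43. An annotated small nuclear RNA gene on the same strand, Gm26479, has its 5′ end in or near the distal window. A cluster near it (chr10:62892903-62893075) held 39.8 ± 1.9 TPM in mESCs. This cluster spans the annotated distal Tet1 start itself. Whether any of its tags came from Gm26479 was not tested. The annotated starts of Tet1-206 and Tet1-201, which carry the complete coding sequences, were weak, at 1.68 ± 0.01 and 6.76 ± 0.97 TPM in mESCs, against 0 and 0.145 ± 0.046 in mOPCs. The most upstream one, of Tet1-208, held 1 tag in 1 mOPC library and none elsewhere. No promoter entry of RefSeq covered the distal start.

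The intronic Tet1 start was bidirectional in mOPCs. On the opposite strand of the same window, 21.1, 21.0 and 22.5 TPM were found in mOPCs and 0.396, 0.360 and 0.163 in mESCs. The opposite strand of the distal start held 4.41 ± 0.33 TPM in mESCs, a small part of the level on the gene's strand.

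Both Tet3 starts were higher in mOPCs, the upstream one more so. The upstream start (Tet3-203, chr6:83455892-83456892), which encodes 1803 codons, was at 4.49, 4.80 and 3.96 TPM in mESCs, compared with 40.9, 37.7 and 43.9 in mOPCs, a log2 fold change of 3.16 ± 0.12 (edgeR adjusted p = 1.73e-46). The downstream start (Tet3-202, chr6:83441132-83442178), which encodes 1668 codons, was at 10.2, 11.5 and 13.7 TPM in mESCs, against 53.9, 58.7 and 61.6 in mOPCs, a log2 fold change of 2.27 ± 0.11 (edgeR adjusted p = 7.00e-39). The upstream share was 27.5 ± 4.4% in mESCs and 41.3 ± 2.0% in mOPCs (usage test, adjusted p = 3.64e-05). The lower share of the downstream start in mOPCs was called at adjusted p = 0.0188 but not without mESC replicate 3 (0.105), without mOPC replicate 1 (0.0518) or in windows of 100 bp (0.942). The third annotated start, of Tet3-204, held 0 tags in mESCs and 1, 1 and 0 in mOPCs. On the opposite strand of the downstream start, where the gene B230319C09Rik begins, tags went from 0.605 ± 0.151 to 9.22 ± 1.32 TPM.

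The other genes each had 1 dominant promoter. At Dnmt1, 99.4 ± 0.1% of tags in mESCs and 99.5 ± 0.2% in mOPCs came from chr9:20952105-20953479, and the start of Dnmt1-202, the most upstream, had 1 tag in 1 mESC library and none in the others. The internal starts of Dnmt1-206 and Dnmt1-204 had means of at most 0.460 TPM. Beside the main Dnmt1 cluster, 2 minor ones downstream were higher in mOPCs, at 1.68 ± 0.55 against 0.486 ± 0.119 and at 2.93 ± 0.44 against 1.10 ± 0.03 TPM. Uhrf1 had 2 start clusters in 1 promoter window, at 57.5 ± 1.3 and 28.0 ± 4.0 TPM in mESCs, compared with 10.00 ± 0.19 and 4.70 ± 0.63 in mOPCs, so both were lower. At Dnmt3b, the main cluster (chr2:153649440-153649511) fell from 17.4 ± 1.2 to 3.50 ± 0.59 TPM, while a weaker one downstream (chr2:153649650-153649702) was at 1.03, 1.08 and 1.30 in mESCs and at 2.60, 3.05 and 2.81 in mOPCs. Tdg had 96.2 ± 0.5% of its tags in its first promoter window in mESCs and 81.0 ± 2.2% in mOPCs, where the 3 internal ones held means of 5.31 to 7.68%, from 3 to 14 tags per library each.

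**Figure D3:**
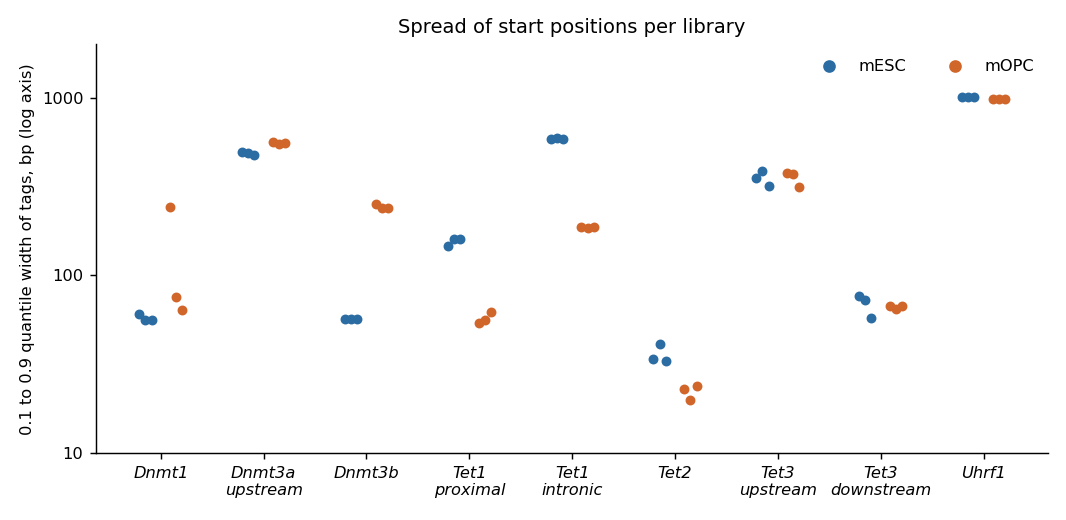
Width, in bp on a log axis, between the positions at the 0.1 and 0.9 quantiles of the tags, 1 point per library, for the promoters with tags enough in both cell types. The Dnmt3b promoter is wider in mOPCs, and those of Tet1 and Tet2 are narrower there.

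The spread of start positions within a promoter was measured as the width from the 0.1 to the 0.9 quantile of its tags. The Tet2 promoter measured 36.0 ± 4.4 bp in mESCs against 22.3 ± 2.1 bp in mOPCs, and 139 ± 3 against 41.7 ± 5.5 bp between the 0.05 and 0.95 quantiles. Its most used position was the same in all 6 libraries and held 27.4 ± 0.3 and 34.7 ± 1.6% of the tags. The Dnmt3b promoter was 57 bp wide in all 3 mESC libraries and 252, 238 and 238 bp in mOPCs, where the second cluster held a larger part of the tags. Between the 0.05 and 0.95 quantiles this difference shrank to 204 to 219 bp against 254 bp. The proximal Tet1 promoter was 146, 161 and 161 bp wide in mESCs and 54, 56 and 62 bp in mOPCs, around the same most used position. The intronic Tet1 promoter was 583 to 589 bp wide in mESCs and 186 to 188 bp in mOPCs. Each of these groups did not overlap, and the exact permutation test gave p = 0.1, its smallest. The widths did overlap at both Tet3 starts, at 352 ± 35 and 355 ± 34 bp upstream and at 69.3 ± 10.0 and 66.3 ± 1.2 bp downstream. Between the 0.05 and 0.95 quantiles the downstream Tet3 widths did not overlap (82.3 ± 3.1 and 111 ± 1 bp). No share over all promoters stands beside these widths. At Dnmt1 the most used position was also shared, and the width was 56 to 61 bp in mESCs and 243, 76 and 64 bp in mOPCs. Between the 0.05 and 0.95 quantiles it was 67 to 69 bp in mESCs and 327 ± 25 bp in mOPCs. In the upstream Dnmt3a window the most used position lay in the first cluster in mESCs and in the second in mOPCs.

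**Figure D4:**
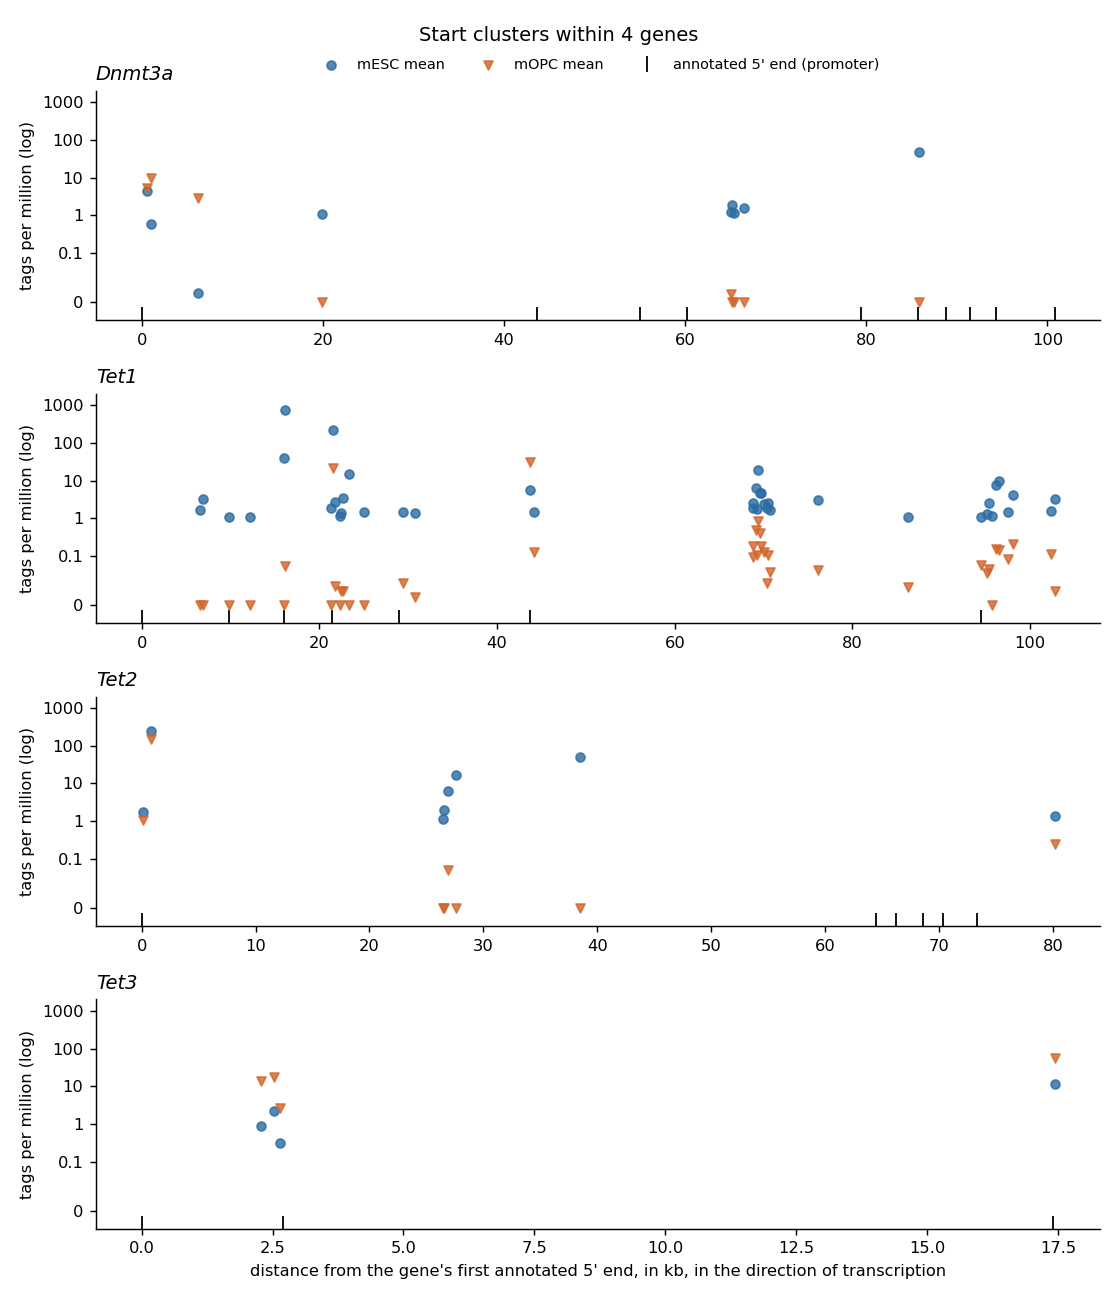
Mean TPM (log axis) of each start cluster along Dnmt3a, Tet1, Tet2 and Tet3, against the distance in kb from the gene's first annotated 5′ end in the direction of transcription. Ticks at the foot mark annotated promoters, and clusters of mean 0 are drawn at the foot of the axis. Several intronic clusters of Tet2 and Tet1 have mESC points high above mOPC points at or near 0.

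Tags also clustered inside these genes away from annotated 5′ ends. Clusters were positions of at least 0.1 TPM in a library, joined up to 20 bp, with a mean of at least 1 TPM in a cell type. Tet2 had 5 such intronic clusters and 1 in an exon, all higher in mESCs. Each of them reached that mean only in mESCs (at most 0.249 TPM in mOPCs), so this direction follows from the limit. The strongest (chr3:133506634-133506727) was at 50.1, 47.7 and 55.9 TPM in mESCs, and no mOPC library held a tag, so it was at least 1561-fold higher in mESCs (against 3 tags over the pooled mOPC libraries). The position with the most tags held 64.1% of this cluster. A second (chr3:133517539-133517593) was at 16.8, 15.7 and 18.7 TPM in mESCs, against 0 in mOPCs. All 5 intronic clusters lie upstream of the Tet2 start codon and leave its 1920 codons downstream. Counted over the whole gene body, the log2 fold change of Tet2 was −1.06, compared with −0.66 at annotated 5′ ends.

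Tet1 had 7 intronic and 24 exonic clusters away from annotated 5′ ends, all 31 higher in mESCs. Each of them reached the limit of 1 TPM only in mESCs, where the gene's level was higher, so this direction follows from the limit. The strongest intronic one (chr10:62885580-62885669) was at 13.9, 14.9 and 15.7 TPM in mESCs, compared with 0 in mOPCs. The exonic clusters summed to 90.9 TPM in mESCs and 3.45 in mOPCs, and the strongest (chr10:62839450-62839640) was at 19.0 ± 3.1 and 0.831 ± 0.117. Dnmt3a had 6 intronic clusters, of which 5 reached the limit only in mESCs and 1 only in mOPCs. The sixth (chr12:3812265-3812274), only 10 bp wide, was at 2.87, 2.53 and 3.32 TPM in mOPCs, with 1 tag in 1 mESC library. Upstream of Dnmt3l, outside the gene, a cluster (chr10:78037357-78037396) averaged 1.02 ± 0.16 TPM in mESCs and had no tag in mOPCs. Dnmt1, Dnmt3b, Tet3, Uhrf1 and Tdg had no cluster of this kind, although Tet3 tags outside its 5′ windows went from 3.44 ± 0.58 TPM in mESCs to 38.1 ± 2.3 in mOPCs without forming one.

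**Figure D5:**
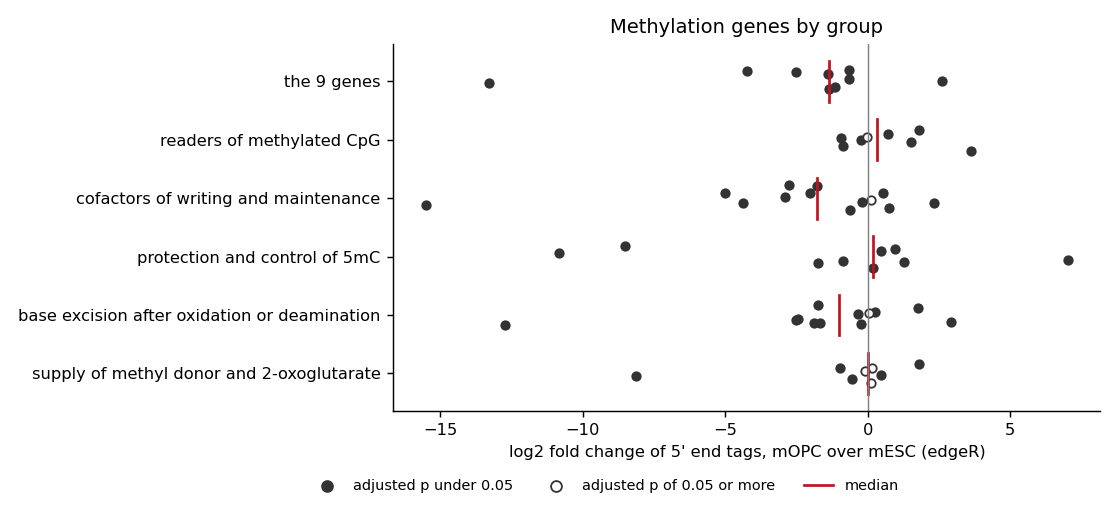
Log2 fold change (mOPCs over mESCs, edgeR) of the 9 genes and of the 50 tested genes of the wider list, 1 point per gene, filled where the adjusted p is under 0.05, with the median of each group in red. Cofactors of writing and maintenance have the lowest median, and readers of methylated CpG the highest.

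A wider list held 51 genes that read methylation, assist its writers or repair its products. Of 50 tested, 27 were higher in mESCs, 17 were higher in mOPCs and 6 did not pass, with a median log2 fold change of −0.24. Of all 18490 genes tested, 48.9% were higher in mESCs and 42.1% in mOPCs, with a median of −0.19, so the list as a whole lay near all genes. The counts by group below stand against the same shares and rest on few genes each. Among 13 cofactors of writing and maintenance, 9 were higher in mESCs and 3 in mOPCs (median −1.78). Zfp57, which protects imprinted methylation, was at 218, 196 and 221 TPM in mESCs and had no tag in mOPCs, at least 6538-fold higher in mESCs. Hells, a chromatin remodeler needed for methylation of repeats, went from 486 ± 51 to 23.5 ± 1.9 TPM (log2 fold change −4.38 ± 0.10, edgeR adjusted p = 9.09e-43). Uhrf2, the paralog of Uhrf1, was slightly lower in mOPCs, at 113 ± 7 and 100.4 ± 2.4 TPM (log2 fold change −0.19 ± 0.08, edgeR adjusted p = 0.0253), where Uhrf1 differed by −2.51. Trdmt1, a related methyltransferase that acts on tRNA, was at 24.3 ± 1.2 and 16.0 ± 0.9.

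Of 8 readers of methylated CpG, 4 were higher in mOPCs and 3 in mESCs (median 0.34). Zbtb4, a zinc finger reader, went from 5.18 ± 0.35 to 64.4 ± 2.1 TPM. Mbd3, whose protein binds methylated CpG poorly, was at 62.9 ± 7.6 and 54.5 ± 7.5 TPM, and its library values overlapped (log2 fold change −0.24 ± 0.10, edgeR adjusted p = 0.0262).

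Of 12 tested genes of base excision, 8 were higher in mESCs and 3 in mOPCs (median −1.01). The 2 glycosylases with the largest changes were opposed: Neil2 was at 31.0 ± 0.9 TPM in mESCs with no tag in mOPCs (at least 945-fold higher), and Neil1 went from 3.64 ± 0.20 to 28.2 ± 0.7. Of 9 genes that protect or control methylated cytosine, 5 were higher in mOPCs and 4 in mESCs (median 0.18). Cxxc4, whose protein binds TET2, went from 0.315 ± 0.059 to 41.2 ± 6.4 TPM, and Dppa3, which guards maternal methylation, was at 8.14 ± 0.98 with no tag in mOPCs (at least 249-fold higher in mESCs). Genes that supply the methyl donor and 2-oxoglutarate had a median of 0.02, with 2 higher in mOPCs, 3 higher in mESCs and 3 that did not pass.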

How the data were processed

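CAGE was measured on nuclear RNA in 3 mESC and 3 mOPC libraries. The deposited values are counts: tags whose 5′ end lies at 1 position and strand of mm10, per library, not normalized. Per the study's methods, the authors split reads by barcode, trimmed linkers and kept uniquely aligned tags. The methods name bowtie, whereas the submitters' processing notes name CASAVA 1.8 and BWA 0.5.9. The library name in the files is 1 per cell type.

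Tags were summed within 500 bp of GENCODE vM21 5′ ends on the gene's strand. Genes, promoters and promoter usage (diffSpliceDGE) were tested with edgeR 4.0.16 in R 4.3.3 (quasi-likelihood, TMM, filterByExpr, Benjamini-Hochberg adjusted p under 0.05 over all features tested). DESeq2 1.42.0, other normalizations, windows of 100 and 1000 bp, gene bodies, no filter, a replicate block and leave-one-out were alternatives. Errors of levels are SD over 3 libraries, and those of log2 fold changes are SE. These SE were computed back from the fold change and the F statistic of the test, so they are approximate. A fold against 3 libraries without tags was computed against 3 pooled tags. Intervals cover counting error only. The tests were checked on simulated counts in which few features changed. Most genes were called here, so that check does not cover data in which most features change. Replicates differed beyond counting noise (chi-square per degree of freedom 4.54 to 11.5). Named genes were the 9 genes, and of the wider list the 3 with the largest change in each direction at 5 or more TPM, plus Uhrf2, Dppa3, Mbd3, Hells and Trdmt1. A further gene of that rule is not reported here. The genes, lists and rules were chosen with earlier results of these data known, and the 2-fold limit was added after values were seen.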

Additional observations from a re-analysis of the deposited data

How the results depend on the processing

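All 135 recomputed fold changes of the 9 genes (15 alternatives each) and all 222 of the promoters named kept their direction and their call. The replicate block left 16833 genes, 20990 promoters and 2414 genes with promoter usage called, compared with 16832, 21171 and 2458. Same-numbered libraries correlated at 0.018, 0.099 and 0.021 in their deviations, and libraries of different number at −0.123 to 0.095. All of these values were small, and whether equal numbers mark a shared batch cannot be told from so few pairs. Without the filter, 4385 genes were called for promoter usage, of 10238 tested in place of 3378. With windows of 100 bp, the usage change of the proximal Tet1 start turned from 0.55 to −0.63, since those windows miss the most used distal position. Joining 5′ ends up to 200 bp gave the same windows and value. The median log2 ratio of the 9 levels was −1.30, and it was −1.57 in windows of 100 bp and −1.05 over gene bodies. The median promoter width of 128 bp became 156 bp in libraries thinned to the smallest and 216 bp between the 0.05 and 0.95 quantiles. Tet2 promoter usage passed without mESC replicate 1, 2 or 3 (adjusted p = 0.00896, 0.00844 and 0.00925), without mOPC replicate 1 (0.000231), with windows of 1000 bp (3.14e-06) and without the filter (0.00328). The causes were not tested. Of the mean levels, 152 moved by less than 1 SD between replicates and 28 by more, 16 of them over gene bodies. Counts were low for Tdg, at 56 to 251 tags per library, and for Dnmt3l in mOPCs, at 1, 0 and 0.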

Other observations

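The deposited start positions lie 1 base upstream of the usual start base throughout the data, not only at the genes above. In each library, 5755 to 7851 RefSeq promoter windows held a position with at least 50 tags. The most used position was the purine of a pyrimidine-purine step, where a start usually lies, in 0.808 to 1.86% of windows, depending on library and strand. It was the pyrimidine of such a step in 87.6 to 89.2%. The shift followed the direction of transcription on both strands and was present in all 6 libraries. Its cause was not tested, and positions of single starts are given here as deposited.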
